A study of Homo sapiens with 8 samples.

Results

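The transcripts of 10 receptor tyrosine kinase genes were examined in an osteosarcoma cell line: EGFR, ERBB2, MET, AXL, IGF1R, INSR, PDGFRA, PDGFRB, FGFR1 and KIT. The genes were chosen by name and by no rule on their measured values, though earlier results of these data were known. They are 10 of the 54174 gene symbols in the expression table. The cells were 143B, an established human osteosarcoma line that descends from the HOS line. Control cultures (4 libraries) received a vector plasmid and the cultures labelled NELL1 knockout (4 libraries) received a plasmid labelled NELL1KO. Both plasmids were given by transient transfection with the reagent TransIT-LT1, RNA was taken 48 h later, and the growth medium of both groups held fetal bovine serum. NELL1 encodes a secreted glycoprotein of the extracellular matrix. The series' design text calls the 4 libraries of a group biological replicates, and the labels describe neither a selection step nor a clone, so the share of cells that took up a plasmid is not known.

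Receptor tyrosine kinases are cell surface proteins with a ligand-binding part outside the cell and a kinase inside it. Ligand binding brings receptor chains together, the kinases phosphorylate one another on tyrosines, and adaptor proteins bound to those sites pass the signal to RAS and the MAP kinases, to PI3 kinase and AKT, and to phospholipase C gamma. In bone and its tumours these receptors are known for roles in the growth, survival and migration of osteoblast-lineage cells.

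The table gave log2 values that had been brought to the same distribution in every library, with no read counts, so the depth behind a value is unknown and changes are relative to the other genes. A library held values for 14911 to 15171 genes. Knockout libraries 1 and 2 resembled each other (SD across tested genes of their difference, 0.12), as did knockout libraries 3 and 4 (0.13), while the SD between those couples was 0.46 to 0.50. Control libraries 1 and 2 were also close (0.10), as were 2 and 4 (0.13) and 1 and 4 (0.15). Control library 3 lay further from 1 and 2 (0.29 and 0.27). P-values over all 8 libraries take the libraries as independent. For tested genes results are also given with each close couple of knockout libraries averaged, where the controls were still taken as independent. NELL1 itself ranged from -6.97 to -4.53 in the controls and from -6.96 to -4.82 in knockout libraries 1, 2 and 4, and it was blank in knockout library 3, so its transcript did not check the labels. Among markers of the labelled cell type, VIM (control mean 10.83), SPARC (5.49) and SPP1 (3.75) were high. RUNX2 (0.20), COL1A1 (0.06) and ALPL (-0.88) were low. COL1A2, BGLAP and THY1 had values in only 4, 3 and 3 libraries, and the osteoblast genes SP7 and IBSP were blank in all libraries. Of the high markers, VIM fell by 0.43 (limma adjusted p = 0.0425, and 0.0507 with the replicate block). SPARC rose by 0.62 (limma adjusted p = 0.0294). Both calls were lost with the couples averaged (limma adjusted p = 0.132 and 0.155), and SPP1 did not pass. The linear levels of the 6 mesenchymal and osteoblast markers with complete values were summed. The sum was 1820 to 1935 in the controls and 1251 to 1718 in the knockouts, and VIM made up most of it. VIM, COL1A1 and ALPL were lower in the knockouts on average, while SPARC, SPP1 and RUNX2 were higher. The blood cell genes PTPRC, CD3E and HBB were blank, CD14 had values in 6 libraries (control mean -4.49) and CD68 was high, at 5.84 in the controls, and differed by -0.16 (limma adjusted p = 0.305). In the controls the endothelial gene PECAM1 was at -3.85, while the keratin genes KRT8 and KRT18 were at 6.58 and 8.84. Of 7 epithelial markers 3 were tested, and KRT8 rose by 0.38 (limma adjusted p = 0.0175; 0.104 with the couples averaged). KRT18 differed by 0.19 and EPCAM by -0.32 without passing (limma adjusted p = 0.100 and 0.345), and CLDN4, below the filter, by -0.68. The summed linear level of the 4 epithelial markers with complete values was 535 to 578 in the controls and 611 to 702 in the knockouts, a sum in which KRT8 and KRT18 were higher and EPCAM and CLDN4 lower on average, while CDH1 was blank in all knockout libraries and at most -7.40 in the controls. The part of these markers in the results was not tested.

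All 10 receptor genes had a value in all 8 libraries, so none was blank. The highest control mean was that of AXL, at log2 6.60, above 97.2% of the 13943 genes with a value in every library. It was followed by MET (4.76), EGFR (4.67), PDGFRA (4.14), FGFR1 (3.06), IGF1R (2.79), ERBB2 (1.82) and INSR (1.43). KIT at 0.18 and PDGFRB at -1.19 were low, above 26.6% and 16.8% of genes, and lay under the mean log2 value of 1 that a gene needed to enter the test. In the control libraries no neighbours in this order overlapped, although MET and EGFR were only 0.09 apart. In the knockout libraries EGFR overlapped PDGFRA and FGFR1 overlapped IGF1R. The unit before the logarithm is not stated, so this order can be read as an order of transcript abundance only if the values were divided by transcript length. Over 13537 genes of known length the median value fell from 2.92 in the shortest 20% to 1.60 in the longest 20%. The length of a gene was the median over its annotated coding transcripts. This trend cannot show whether the values were divided by length, because true levels may also differ with length.

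**Figure D1:**
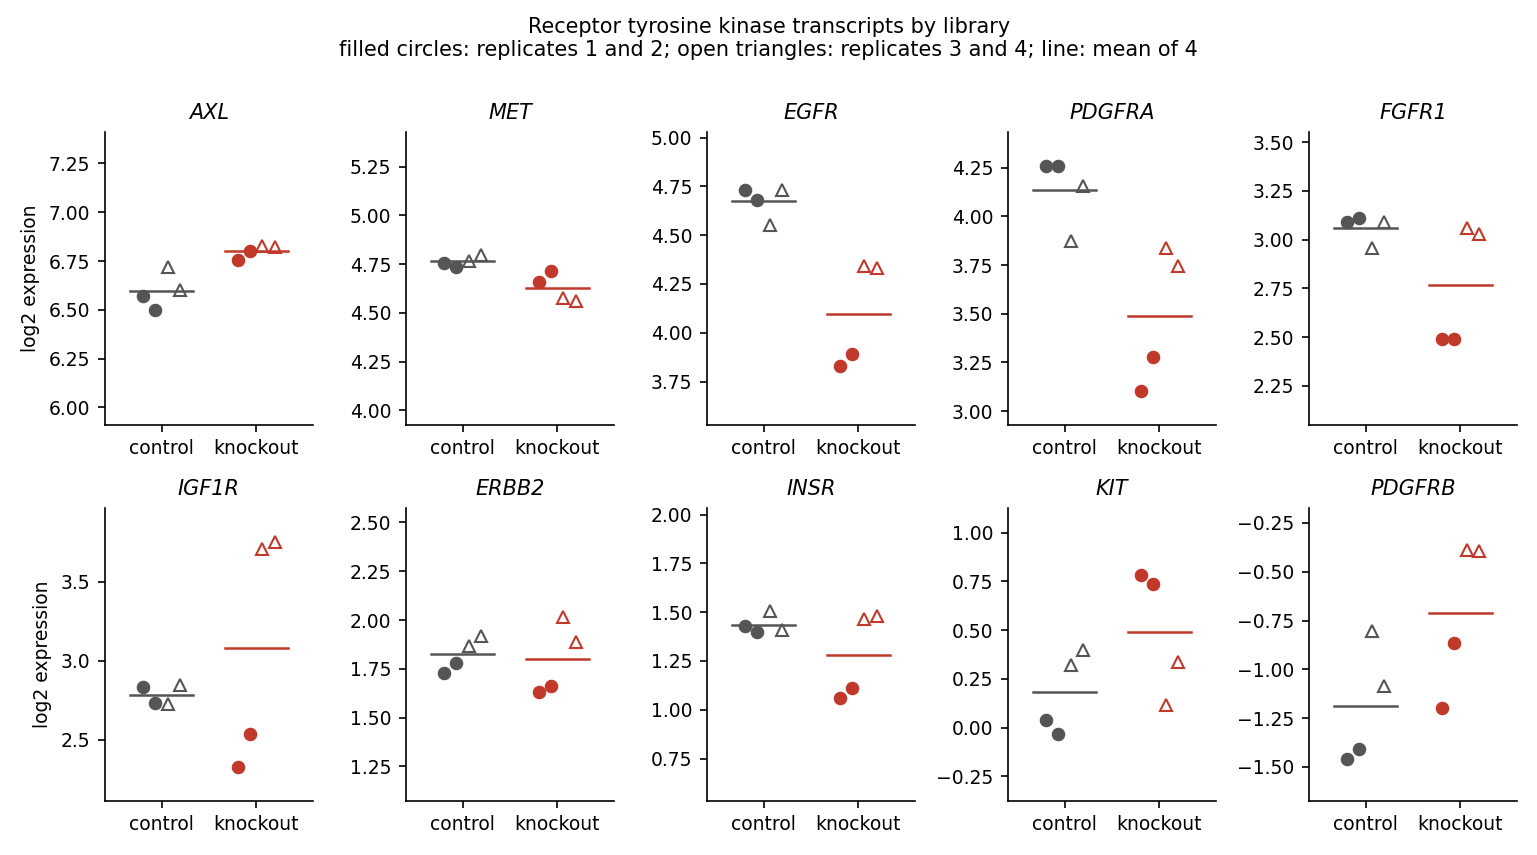
Log2 expression (vertical axis, with its own range in each panel) of the 10 receptor genes in the 4 control (grey) and 4 knockout (red) libraries, ordered by control mean; each point is a library and each line the mean of a group. EGFR and PDGFRA lie lower in all knockout libraries, and knockout libraries 1 and 2 of IGF1R lie below every control while 3 and 4 lie above.

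EGFR and PDGFRA were called lower in the knockout libraries, and none of the 8 tested receptor genes was called higher. The other 6 did not pass the test. The 2 called genes stand against 13.1% of all 9016 tested genes called in either direction, 6.1% called lower and 7.02% called higher (limma, adjusted p under 0.05 by the Benjamini-Hochberg method over all tested genes). The values of the groups were fully separate for 4 of the 8 (EGFR, PDGFRA, MET and AXL), against 22.9% of all tested genes. The median log2 difference of the 8 was -0.15, and 6 were below 0. Over all tested genes the median was 0.01. With each close couple of knockout libraries averaged, none of the 8 was called, against 1.2% of all tested genes. When the fit was blocked by replicate number, 1 was called, EGFR, against 10.2%. At an adjusted p under 0.01 none was called, against 3.02%.

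EGFR, the receptor of epidermal growth factor, is the founding member of the ERBB family. Its log2 values were 4.73, 4.68, 4.55 and 4.73 in control libraries 1 to 4 and 3.83, 3.89, 4.34 and 4.33 in knockout libraries 1 to 4. Every knockout value lay below every control value, and knockout libraries 1 and 2 were the lowest. The means were 4.67 ± 0.08 and 4.10 ± 0.28 (SD, n = 4 each), a log2 difference of -0.58 ± 0.13 (SE; limma adjusted p = 0.0258), or 67.0% of the control level. The gene spans chr7:55019017-55211628 on GRCh38 and has an antisense gene, EGFR-AS1, which was blank in all libraries. In bulk RNA fewer cells with the transcript and less of it per cell cannot be told apart. The call was lost when the knockout couples were averaged (limma adjusted p = 0.0955). It was also lost without control library 1 (0.0815), 2 (0.0777) or 4 (0.0811) or without knockout library 2 (limma adjusted p = 0.0540). The log2 differences in those fits were -0.56, -0.57, -0.56 and -0.51, and each fit had fewer libraries.

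PDGFRA, the alpha receptor for platelet-derived growth factors and a marker of mesenchymal cells, showed the largest difference among the 8. Its log2 values were 4.26, 4.26, 3.87 and 4.16 in the controls and 3.10, 3.28, 3.84 and 3.74 in the knockouts. Control library 3 (3.87) and knockout library 3 (3.84) came close to each other without overlapping. The means were 4.14 ± 0.18 and 3.49 ± 0.35 (SD, n = 4 each), a log2 difference of -0.65 ± 0.17 (SE; limma adjusted p = 0.0440), or 63.9% of the control level. The gene lies at chr4:54229293-54298245. The call was lost with the replicate block (limma adjusted p = 0.0880), with the knockout couples averaged (0.134) and with no filter on low genes (0.0693). Replicates 3 and 4 alone did not give the call either (-0.23, limma adjusted p = 0.159), while replicates 1 and 2 alone did. It was lost as well without control library 1 (0.122), 2 (0.124) or 4 (0.115) and without knockout library 1 (0.0734) or 2 (limma adjusted p = 0.0888). The log2 difference in those fits, each with fewer libraries, ran from -0.64 to -0.52.

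Across the 8 libraries EGFR and PDGFRA followed each other more closely than any other couple of the 10 receptor genes (Pearson's r = 0.98, Spearman's rho = 0.98). This is a description, since the points share libraries of which several lie close together. IGF1R had a Pearson's r of 0.22 with EGFR and 0.27 with PDGFRA. The 250 bases upstream of the RefSeq start of EGFR, PDGFRA and IGF1R are shown as a description, from GRCh38.p14 and on the plus strand. Whether these sequences bear on the expression values was not tested. Capitals mark the GC box GGGCGG, the core of the site bound by SP1, or its reverse complement CCGCCC. The windows are chr7:55018767-55019016 for EGFR, chr4:54229043-54229292 for PDGFRA and chr15:98648289-98648538 for IGF1R.
EGFR: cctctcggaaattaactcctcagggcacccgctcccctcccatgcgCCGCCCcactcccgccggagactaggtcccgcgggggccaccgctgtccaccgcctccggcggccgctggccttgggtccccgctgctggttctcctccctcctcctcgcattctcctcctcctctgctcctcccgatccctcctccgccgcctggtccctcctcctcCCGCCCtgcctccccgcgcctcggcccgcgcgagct
PDGFRA: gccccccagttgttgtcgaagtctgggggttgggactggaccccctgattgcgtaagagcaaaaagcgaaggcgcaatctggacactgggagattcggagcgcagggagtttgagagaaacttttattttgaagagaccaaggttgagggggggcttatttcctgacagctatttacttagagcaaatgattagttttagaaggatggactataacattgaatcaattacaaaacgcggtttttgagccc
IGF1R: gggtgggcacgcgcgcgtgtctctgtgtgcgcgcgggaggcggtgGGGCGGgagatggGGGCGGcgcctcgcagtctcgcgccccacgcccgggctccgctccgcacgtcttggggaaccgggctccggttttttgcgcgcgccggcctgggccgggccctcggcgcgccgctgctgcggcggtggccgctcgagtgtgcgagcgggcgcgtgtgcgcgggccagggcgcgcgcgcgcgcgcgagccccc
The EGFR and IGF1R windows were rich in G and C (73.6% and 81.2%, with a median of 58.0% over all 35116 RefSeq promoter windows of this length) and each held 2 GC boxes. The PDGFRA window had 46.8% G and C and no GC box, so EGFR and PDGFRA differed in these features at these starts. The table lists a further PDGFRA start, whose window at chr4:54233710-54233959 had 64.0% G and C and 2 GC boxes, and a further EGFR start, whose window at chr7:55109589-55109838 had 38.8% G and C, no GC box and 2 matches to the TATA box letters. The expression values do not tell the starts apart. A GC box stood in 42.6% of all promoter windows. None of the 3 windows printed held the TATA box letters TATAAA or TTTATA, which occur in 10.7% of all windows. A match of letters is not evidence of binding, and promoter sequences were matched for 9 of the 10 genes.

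ERBB2 encodes the ERBB family receptor that has no known ligand of its own and pairs with the others. Its log2 values were 1.73, 1.78, 1.87 and 1.92 in the controls and 1.63, 1.66, 2.02 and 1.89 in the knockouts. The groups overlapped, with knockout libraries 1 and 2 below every control and 3 above. The difference was -0.02 ± 0.10 (SE; limma adjusted p = 0.902), and it lay under the SD of either group (0.09 and 0.19, n = 4 each). ERBB2 lies at chr17:39688094-39728658.

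PDGFRB and KIT belong to the same receptor class as PDGFRA. PDGFRB (chr5:150113839-150155845), the beta receptor for platelet-derived growth factors, was at -1.46, -1.41, -0.80 and -1.09 in the controls and at -1.20, -0.86, -0.39 and -0.39 in the knockouts. The groups overlapped, and its mean was 0.48 higher in the knockouts on the log2 scale (p = 0.143 in an exact permutation test, two-sided; 4 against 4 allow no p under 0.0286). KIT, the receptor of stem cell factor, was at 0.04, -0.03, 0.32 and 0.40 in the controls and at 0.78, 0.74, 0.11 and 0.33 in the knockouts. Knockout libraries 1 and 2 lay above every control and libraries 3 and 4 within the control range. The log2 difference of KIT was 0.31 (p = 0.143 in the same exact permutation test). In a limma fit with no filter on low genes (13943 genes, 8.3% called), the adjusted p was 0.222 for PDGFRB and 0.309 for KIT.

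KIT starts 359.7 kb past the end of PDGFRA on chromosome 4 (chr4:54657957-54740715), with 2 genes between them. In replicates 1 and 2 PDGFRA differed by -1.07 log2 units and KIT by 0.76, differences of opposite sign. The difference of KIT there did not pass (exact permutation p = 0.333, two-sided, the smallest that 2 against 2 can give). In replicates 3 and 4 the differences were -0.23 and -0.13. Over the 8 libraries the values of PDGFRA and KIT ran against each other (Pearson's r = -0.89, Spearman's rho = -0.81, a description).

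FGFR1, a receptor of fibroblast growth factors with a role in skeletal development, had log2 values of 3.09, 3.11, 2.96 and 3.09 in the controls and 2.49, 2.49, 3.06 and 3.03 in the knockouts. Knockout libraries 1 and 2 lay well below every control, and libraries 3 and 4 lay within the control range. The difference of -0.29 ± 0.15 (SE) did not pass the test (limma adjusted p = 0.217). Replicates 1 and 2 taken alone gave -0.61, and replicates 3 and 4 gave 0.02.

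IGF1R and INSR encode the closely related receptors of insulin-like growth factors and of insulin, which also form hybrid receptors. IGF1R stood at 2.84, 2.73, 2.72 and 2.85 in the controls and at 2.33, 2.54, 3.70 and 3.75 in the knockouts. Knockout libraries 1 and 2 were below every control and libraries 3 and 4 above every control, an arrangement shared by 7.09% of all tested genes. The difference over all libraries was 0.30 ± 0.32 (SE; limma adjusted p = 0.575). Replicates 1 and 2 gave -0.35 and replicates 3 and 4 gave 0.94, while leaving out a knockout or control library in turn gave 0.07 to 0.55. The mean of knockout libraries 3 and 4 exceeded that of 1 and 2 by 1.30 log2 units. Only 1.76% of tested genes had a gap of that size or more between the knockout couples, which is a ranking and not a test. IGF1R lies at chr15:98648539-98964530. INSR (chr19:7112265-7294414) was at 1.43, 1.40, 1.51 and 1.41 in the controls and at 1.06, 1.11, 1.47 and 1.48 in the knockouts. Its knockout libraries 1 and 2 were below every control and its libraries 3 and 4 were within the control range. The difference of -0.16 ± 0.11 (SE) did not pass the test (limma adjusted p = 0.381).

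MET, the receptor of hepatocyte growth factor, and AXL, a receptor of the vitamin K-dependent protein GAS6, were separated between groups by small amounts that did not pass the test. MET (chr7:116672196-116798377) was at 4.76, 4.73, 4.77 and 4.80 in the controls and at 4.66, 4.72, 4.58 and 4.56 in the knockouts. All knockout values were below all control values, by as little as 0.02 at the nearest, and the difference was -0.14 ± 0.06 (SE; limma adjusted p = 0.179). AXL (chr19:41219223-41261766) was at 6.57, 6.50, 6.72 and 6.60 in the controls and at 6.75, 6.80, 6.83 and 6.82 in the knockouts. All knockout values exceeded all control values, and the difference was 0.20 ± 0.07 (SE; limma adjusted p = 0.0774), or 115% of the control level. AXL passed the threshold with a term for replicates 1-2 against 3-4, a fit that called 25.2% of all tested genes (limma adjusted p = 0.0336), and without control library 3, its highest control (0.24; limma adjusted p = 0.0335).

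**Figure D2:**
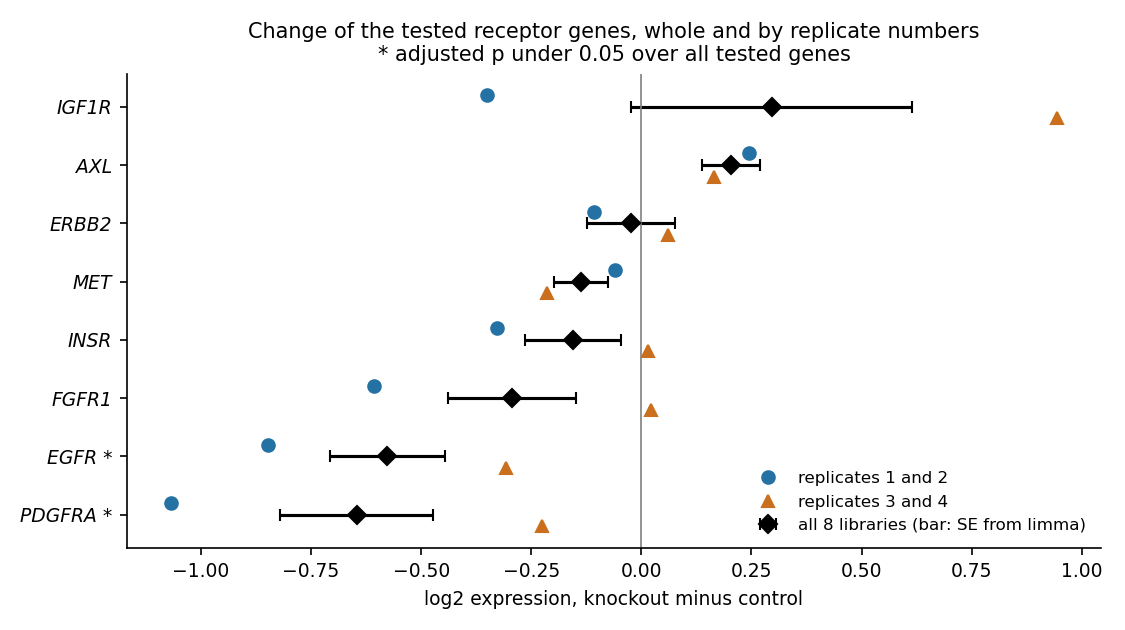
Log2 difference, knockout minus control (horizontal axis), of the 8 tested receptor genes over all 8 libraries (diamonds, with the standard error from limma as bars), within replicates 1 and 2 (circles) and within replicates 3 and 4 (triangles). The fall of EGFR and PDGFRA has the same sign in both sets of replicates, as does the difference of every one of the 1183 called genes. MET and AXL, not called, also keep 1 sign, whereas IGF1R is at -0.35 and 0.94.

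The place of the tested receptor genes relative to the controls was then counted for each close couple of knockout libraries. In knockout libraries 1 and 2, 7 of the 8 lay below every control and AXL lay above, against 27.7% of all tested genes below every control and 32.5% above. In knockout libraries 3 and 4, 3 lay below every control (EGFR, MET and PDGFRA), 2 lay above (AXL and IGF1R) and 3 overlapped the controls. The shares over all tested genes there were 28.8% below and 30.2% above. In a fit of replicates 1 and 2 alone 6 of the 8 were called, against 59.7% of all tested genes. Replicates 3 and 4 alone gave 2 calls, against 33.1%. Both fits took libraries that lay close together as independent (knockout couples, SD 0.12 and 0.13). Their p-values therefore leave out the spread between the couples. EGFR differed by -0.85 in replicates 1 and 2 and by -0.31 in replicates 3 and 4, and PDGFRA by -1.07 and -0.23. The sets of replicates were recognised from the data and the difference between them was not tested.

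**Figure D3:**
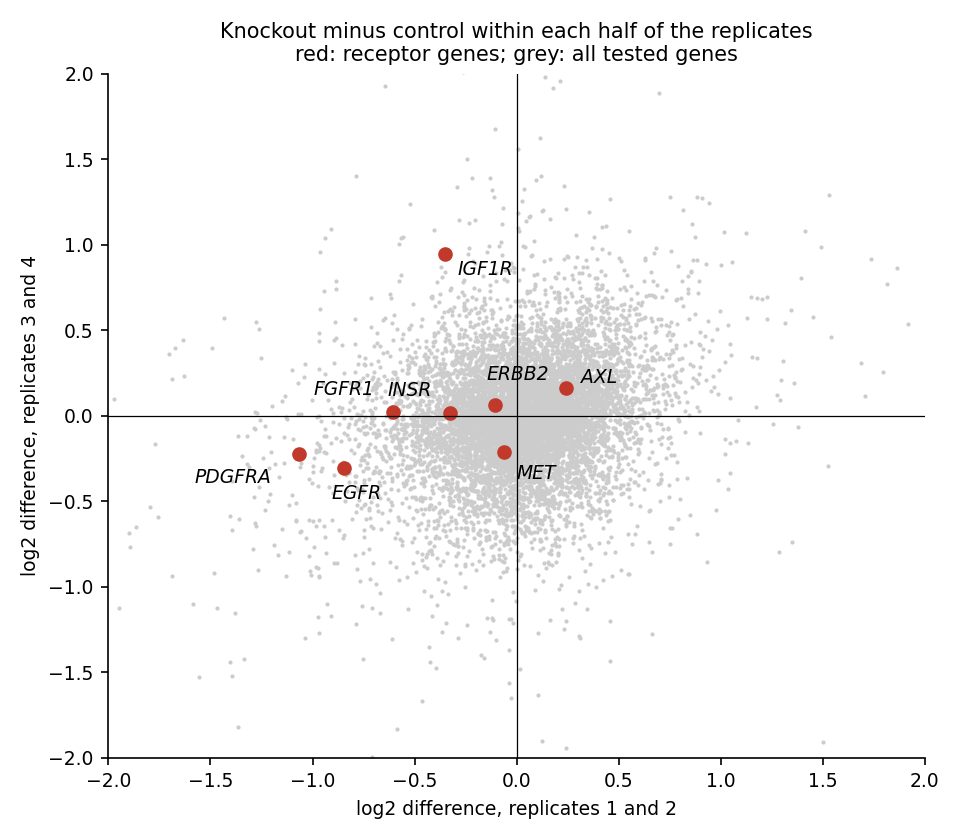
Log2 difference, knockout minus control, within replicates 1 and 2 (horizontal axis) and within replicates 3 and 4 (vertical axis), for the 8 tested receptor genes (red) and all 9016 tested genes (grey; 16 lie outside the plotted range of 2 log2 units). PDGFRA and EGFR lie furthest to the left of the receptor genes, and IGF1R lies left of and above the origin.

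Among the ligands listed for the 10 receptors, some of which also bind other receptors, KITLG rose and PDGFC fell, and the other 5 of the 7 tested did not pass the test. The called share was 28.6%, beside 13.1% of all tested genes. In total 18 of the 23 listed ligands had a value in every library. The growth factors IGF1 and INS were blank throughout, HGF, the ligand of MET, was blank in every control, EREG and EPGN were partly blank, and 11 were below the filter. KITLG, the stem cell factor that binds KIT, was at 0.60, 0.57, 1.12 and 0.78 in the controls and at 2.82, 2.79, 2.22 and 1.90 in the knockouts. All knockout values were above all controls, and the difference of 1.67 ± 0.22 (SE; limma adjusted p = 0.00420) was still called with the knockout couples averaged (0.0299). PDGFC, a ligand of PDGFRA, was at 2.43, 2.58, 2.33 and 2.33 in the controls and at 1.95, 2.20, 1.84 and 1.75 in the knockouts, a difference of -0.49 ± 0.11 (SE; limma adjusted p = 0.0242; 0.0965 with the couples averaged). Every knockout value of PDGFC was under every control value, as for its receptor PDGFRA.

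GAS6, the ligand of AXL, was at 0.59, 0.78, 1.78 and 1.45 in the controls and at 1.58, 1.65, 2.46 and 2.54 in the knockouts. The groups overlapped through control library 3, and the difference of 0.91 ± 0.32 (SE) did not pass (limma adjusted p = 0.0983), while it passed with the replicate block (0.00968) and with a term for replicates 1-2 against 3-4 (limma adjusted p = 0.000677). In each same-numbered couple of a control and a knockout library the knockout value was the higher. PROS1, the other ligand of that receptor family, was below the filter and lay at 0.94 to 1.22 in the controls and at 0.35 to 0.64 in the knockouts (difference -0.60; limma without a filter, adjusted p = 0.0142). FGF1, a ligand of FGFR1 and also below the filter, lay at -1.56 to -0.79 in the controls and at 1.68, 1.62, 0.14 and 0.23 in the knockouts (difference 2.07; limma without a filter, adjusted p = 0.0264). No other ligand below the filter was called in that fit. It took the 8 libraries as independent, and genes below the filter had no fit with the couples averaged or the replicate block. FGF1 averaged 1.65 in knockout libraries 1 and 2 and 0.18 in knockout libraries 3 and 4.

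The remaining tested ligands did not separate the groups. HBEGF, an EGFR ligand, differed by -0.07 (limma adjusted p = 0.869), PDGFA by -0.28 (0.212), IGF2 by 0.13 (0.863) and FGF2 by 0.46 (limma adjusted p = 0.414). IGF2 repeated the arrangement of its receptor IGF1R, with 1.27 and 1.32 in knockout libraries 1 and 2, 2.77 and 3.00 in 3 and 4, and 1.81 to 2.08 in the controls. FGF2 showed the reverse arrangement of FGFR1 in replicates 1 and 2, where it was 1.08 higher and FGFR1 was 0.61 lower in the knockouts. Of the EGFR ligands under the filter, TGFA differed by -0.78 and AREG by -0.09. BTC and EGF were near the bottom of the range, at -5.08 and -6.60 in the controls. Of the other ligands below the filter, PDGFB differed by 0.26, PDGFD by 0.17, FGF5 by 0.90, FGF7 by 1.48 and FGF18 by 0.57 log2 units.

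**Figure D4:**
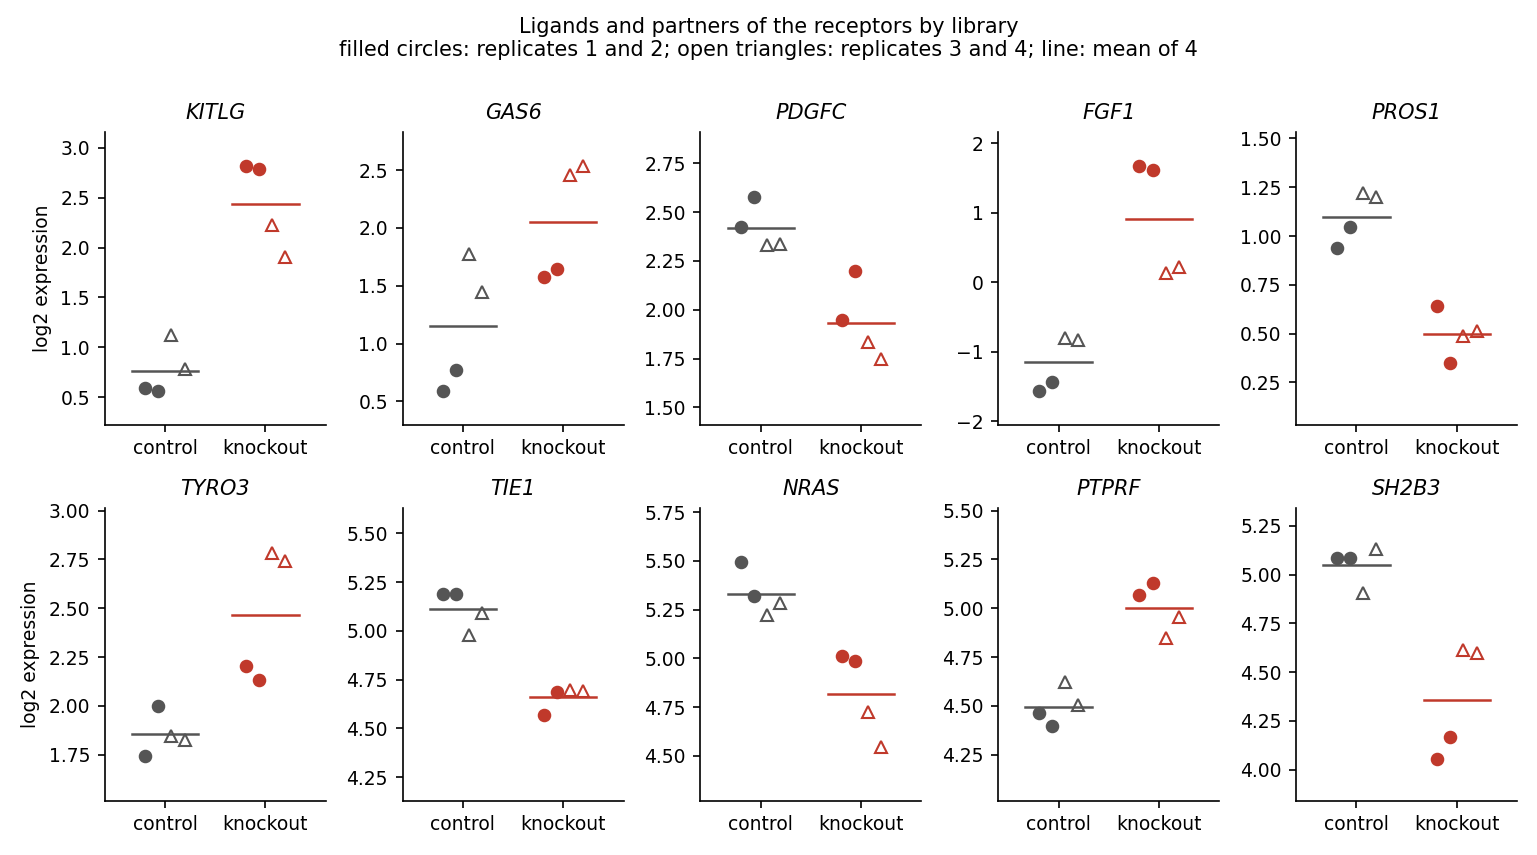
Log2 expression (vertical axis, with its own range in each panel) of 5 ligands, 2 further receptor kinases, NRAS, the phosphatase PTPRF and the adaptor SH2B3 in control (grey) and knockout (red) libraries; each point is a library and each line the mean of a group. KITLG, FGF1, TYRO3 and PTPRF are higher, and PDGFC, PROS1, TIE1, NRAS and SH2B3 lower, in every knockout library than in every control library.

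Of 11 co-receptors, 9 were tested and 1 was called (11.1%, beside 13.1% of all tested genes). SDC4, a heparan sulfate proteoglycan that presents fibroblast growth factors to their receptors, fell from 5.57 ± 0.29 to 4.81 ± 0.09 (SD, n = 4 each), a difference of -0.76 ± 0.14 (SE; limma adjusted p = 0.0110; 0.0897 with the couples averaged). IGF2R, the clearance receptor of IGF2, differed by -0.32 and did not pass (limma adjusted p = 0.123). NRP1, which was at 5.08 in the controls, differed by -0.91 in replicates 1 and 2 and by 0.04 in replicates 3 and 4 and did not pass over all libraries (limma adjusted p = 0.317).

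Among 33 adaptors and proximal effectors, 28 were tested, 1 rose and 1 fell. NRAS, a RAS protein downstream of the receptors, was at 5.49, 5.32, 5.22 and 5.28 in the controls and at 5.01, 4.99, 4.73 and 4.55 in the knockouts. Every knockout value was below every control, and the difference was -0.51 ± 0.12 (SE; limma adjusted p = 0.0265). HRAS differed by 0.06 and did not pass (limma adjusted p = 0.595). PIK3R1, the regulatory subunit of PI3 kinase, rose by 0.30 (limma adjusted p = 0.0424; 0.0918 with the replicate block). IRS1, the docking protein of IGF1R and INSR, was 0.58 higher and did not pass (limma adjusted p = 0.108), while it passed with the replicate block (0.0170) and with the term for replicates 1-2 against 3-4 (limma adjusted p = 0.00291). The list's share of called genes was 7.14%, beside 13.1% of all tested genes, and its median difference was -0.04. No gene of the list was called with the knockout couples averaged.

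Among 23 negative regulators of receptor kinases, 20 were tested, 1 rose and 4 fell, and the median difference was -0.20. The called share was 25%, beside 13.1% of all tested genes called and 6.1% called lower. PTPRF, a receptor-type tyrosine phosphatase, rose by 0.50 ± 0.08 (SE; limma adjusted p = 0.00864). The falls, by size, were in SH2B3, an adaptor that restrains KIT and cytokine receptor signalling (-0.69; limma adjusted p = 0.0159), in SH3KBP1, which acts in the internalisation of EGFR (-0.59; 0.0113), and in GRB10, an inhibitor of the insulin and IGF1 receptors (-0.58; 0.0402). The remaining fall was in PTPN2, a tyrosine phosphatase, by 0.31 (limma adjusted p = 0.0294; 0.0621 with the replicate block). The EGFR inhibitor ERRFI1 did not pass, with 0.28 in replicates 1 and 2 and -1.10 in replicates 3 and 4. Of these 5 called genes, none was called with the knockout couples averaged.

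Of 33 further receptor tyrosine kinases outside the Eph family, 11 were tested, 17 were below the filter and 5 had blank cells. TYRO3, a relative of AXL, rose by 0.61 ± 0.16 (SE; limma adjusted p = 0.0394; 0.0599 with the replicate block), from a control mean of 1.85 to 2.47. TIE1, a receptor best known from endothelium, fell by 0.45 (limma adjusted p = 0.00762). MERTK, the remaining member of the AXL family, differed by 0.11 and did not pass (limma adjusted p = 0.311). Of the 11 tested, 18.2% were called, beside 13.1% of all tested genes, and their median difference was -0.04. None was called with the knockout couples averaged.

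For each tested receptor gene the genes of most similar profile, up to 3, were taken by Pearson's r over the 8 libraries, as a measure of likeness with no test. EGFR was most like SH2B3 and SERPIND1 (r = 1.00 and 0.99, rho = 0.93 and 0.95). PDGFRA was most like GSAP, NUCB1 and COL9A3, FGFR1 like GPRC5C, KCNN4 and BRK1, and INSR like WDR81, SPSB1 and SH3PXD2A. IGF1R was most like KNL1, VAT1L and IQGAP1, MET like ZFP69B, MYL12A and NOTCH2, AXL like WDR62, ACOT2 and CAV1, and ERBB2 like TCIRG1, FBXW5 and MRPL57. The lowest r among the named genes was 0.96, for ERBB2 and MRPL57. The 8 libraries include close couples, so they are not 8 independent points.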

How the data were processed

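RNA-seq libraries of 8 cultures (4 control, 4 NELL1 knockout) were grouped and numbered by their titles. The labels' protocols name TRIzol for the RNA and the stranded total RNA TruSeq kit of Illumina for the libraries. The submitters' processing notes name bcl2fastq, Partek 7.0 and GRCh38. The deposited values are log2 values (base inferred from their range), equal in distribution between libraries. The unit before the logarithm, the aligner and the annotation are not given in the sources used here. Blank cells were treated as missing. Knockout minus control was tested by limma 3.58.1 (R 4.3.3) over the 9016 genes that were complete across the 8 libraries and averaged 1 or more, with Benjamini-Hochberg adjustment over all of them and a threshold of 0.05. The script was tested on simulated data with independent libraries. That test cannot check the p-values for libraries in close couples, as the knockout libraries here are. Genes below that mean were compared by exact permutation tests and by limma without the filter.

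Same-numbered libraries deviated together in all 4 couples (correlation of deviations from group means over tested genes, 0.20 to 0.29), as did other numbers within replicates 1-2 or 3-4 (0.11 to 0.31). The mean was 0.25 for same numbers and 0.23 for other numbers of the same set. Between the sets the correlations were -0.30 to -0.15. Deviations from a group mean are not independent of each other. The labels do not say what a number shares. Blocked values are given where they change a call.

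The receptor genes, gene lists, naming rule and alternatives were chosen with earlier results of these data known. Named are all 10 receptors, their ligands, the 3 largest rises and falls among called genes of each list, and the 3 genes most like each tested receptor. Other named genes were chosen after their values were seen. A few genes that these rules cover are not reported here. Gene positions and promoter sequences are from RefSeq (GRCh38.p14), and transcript lengths from GENCODE 29.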

Additional observations from a re-analysis of the deposited data

Results flagged for a closer look

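The control value of FGFR1 in library 3, at 2.96, stood apart from the other 3 controls (3.09, 3.11 and 3.09). Its gap to the nearest of them, relative to the range of the group, exceeded Dixon's 95% critical value. It was the only such value among 20 groups of 4 libraries (10 receptor genes in 2 groups), and chance flags about 1 in 20. Without that library the log2 difference of FGFR1 was -0.33 (limma adjusted p = 0.224).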

How the results depend on the processing

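Of the 8 tested receptor genes, 2 were called over all libraries, both lower. The count was 1 with no filter on low values and 1 with the replicate block, 0 with the knockout couples averaged and 0 at an adjusted p under 0.01. In replicates 1-2 alone 6 were called, 5 lower and 1 higher. In replicates 3-4 alone 1 was lower and 1 higher. A term for replicates 1-2 against 3-4 added 1 higher call. When 1 library at a time was left out, the count ranged from 0 to 3, with 0 to 2 lower and 0 to 1 higher. The share of all tested genes called in those fits is not given here, so these counts cannot be set against it. EGFR and PDGFRA kept their sign under all alternatives, with differences from -0.85 to -0.31 and from -1.07 to -0.23. So did MET and AXL, which were not called. No called gene differed in sign between the sets of replicates, so a shared sign there is not particular to EGFR and PDGFRA. The sign was reversed in replicates 1-2 alone for IGF1R (-0.35) and in replicates 3-4 alone for ERBB2 (0.0607), INSR (0.0154), FGFR1 (0.0209) and KIT (-0.13). Without 1 library the ERBB2 difference ranged from -0.0958 to 0.0333. The cause of these changes was not tested. The replicate block changed no other receptor call than that of PDGFRA (0.0880). Depth is unknown, so precision rests on the spread between libraries alone.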

Other observations

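The further receptor kinases given here were chosen after their values were seen. ALK, below the filter, was at -3.00, -1.93, -2.61 and -2.43 in the controls and at -4.55, -4.31, -4.49 and -4.39 in the knockouts, a difference of -1.94 (limma without a filter, adjusted p = 0.00412). That fit took the 8 libraries as independent, and ALK had no fit with the couples averaged. KDR, which lies 337.8 kb past KIT on chromosome 4 with 6 genes between them, did not pass (limma without a filter, adjusted p = 0.739) and lay at -4.73 to -2.49 in the controls, at -0.82 and -1.16 in knockout libraries 1 and 2 and at -4.84 and -4.65 in knockout libraries 3 and 4. NTRK2 did not pass either (limma without a filter, adjusted p = 0.538) and was at -5.60 and -4.72 in knockout libraries 1 and 2 and at -1.64 and -1.66 in 3 and 4, with controls from -5.15 to -3.78. DDR1, a collagen receptor that was tested, was at 2.19 and 2.37 in knockout libraries 1 and 2, at 3.59 and 3.54 in 3 and 4 and at 3.52 to 3.58 in the controls (limma adjusted p = 0.222).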
